A study of Gallus gallus with 5 samples.

Results

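The amino acid, sugar and monocarboxylate carriers were described in 5 RNA-seq libraries of blastoderms of the chicken (Gallus gallus). The blastoderm is the embryo of the laid egg, a cell disc on the surface of the yolk. The carriers were taken by gene symbol, as the SLC1, SLC2, SLC3, SLC5, SLC6, SLC7, SLC16, SLC36, SLC38 and SLC43 families of solute carriers. They comprised 63 of the 10102 genes to which a deposited row could be assigned. Of the 63, 37 reached an FPKM of 1 in 1 or more libraries and entered the comparisons, as did 7733 of all genes. FPKM is a fragment count corrected for the length of the transcript and for the size of the library. A further 27 symbols of these families, 2 of which are not carriers, had no assigned row and were not analysed here. The members counted for a family below are those with an assigned row.

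Per the labels, the libraries came from blastoderms that were not stored, that were incubated at 37 °C for 4 h, or that were kept in storage at 4, 16 or 24 °C for 7 days. The series concerns dormancy, the pause in development of an egg that is kept cool, and 37 °C is a temperature at which development resumes. The strain, the stage at laying and the number of blastoderms in a library are not stated in the labels, and the libraries share the same tissue, kit and platform per the labels. Each condition had 1 library, so every difference lies between 2 libraries, without a replicate check, a standard deviation or a p-value. In bulk RNA, fewer cells of a type and less RNA per cell cannot be told apart.

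Solute carriers move small molecules across membranes. Glucose enters cells through facilitative carriers of the SLC2 family, and the lactate made from it leaves with protons through SLC16 carriers. Amino acids are pumped in with sodium or protons by members of the SLC1, SLC6, SLC36 and SLC38 families. SLC7 carriers exchange amino acids or let cationic ones pass, often paired with a heavy subunit of the SLC3 family. An embryo before blood circulation draws such nutrients from the yolk and albumen around it.

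Libraries were compared on the scale of log2(FPKM + 1), which makes the change of scarce genes look smaller. The difference was called higher or lower where it was at least 1 in size and FPKM was above 0 in both libraries, that is, 2-fold on the FPKM + 1 scale. The largest departures from unstored were in opposite directions in different libraries. After incubation 6 carriers were higher and none was lower, where 8.48% of all genes were higher and 2.55% lower. At 4 °C none was called, where 0.637% of all genes were higher and 0.0909% lower. At 16 °C 1 was higher and 6 were lower, where 7.66% of all genes were higher and 8.75% lower. The higher carrier, SLC7A9, entered through the 16 °C library alone. At 24 °C 6 were higher and 4 were lower, where 10.5% of all genes were higher and 8.37% lower. These counts refer to 36 carriers with FPKM above 0 in both libraries. They could not change without the minimum, because a gene under FPKM of 1 in every library cannot differ by 1 on this scale.

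The abundant carriers and the scarce ones did not contribute alike to these counts. Of the 17 carriers with a mean FPKM of at least 5, none was called after incubation. At 16 °C 6 of them were lower and none was higher, and at 24 °C 4 were lower and 2 were higher. Among all genes of that abundance, the share called lower was 10.3% at 16 °C and 9.53% at 24 °C, and the share called higher was 6.57% and 8.52%. After incubation 6.19% of those genes were higher and 2.59% lower. The 6 carriers higher after incubation thus all had a mean under 5. Of the 37 carriers, 5 entered through the incubated library alone, so that the minimum fixed where they were highest. Among them SLC2A2 and SLC2A9L were 2 of the 6 called higher, and SLC7A2, SLC16A7 and SLC16A12 were not called. Of the other 4 called carriers, SLC2A13 alone reached the minimum in the unstored library. SLC1A2 passed it through the incubated and 24 °C libraries only, SLC1A3 also through 4 °C and SLC36A4 also through 16 °C.

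**Figure D1:**
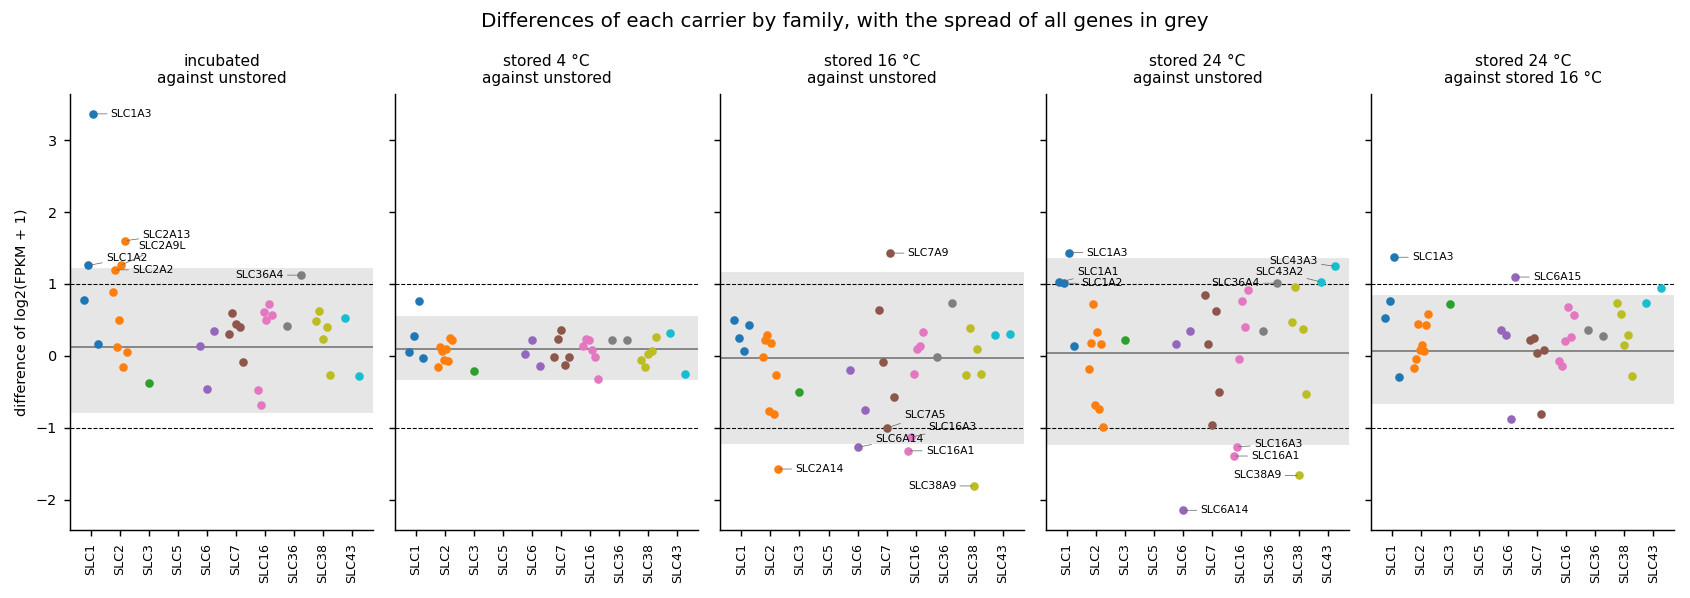
Difference of log2(FPKM + 1) of each carrier that entered, by family, in 5 comparisons, with carriers at a difference of at least 1 (dashed lines) named. The grey band spans the 5th to the 95th percentile of all genes and the grey line is their median. The points at 4 °C lie between -0.31 and 0.76, the highest being SLC1A3, above the grey band. The carriers named at 16 °C are below 0 except SLC7A9.

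Differences were taken on values as deposited. The median of all genes was then 0.12 for incubated against unstored, 0.10 at 4 °C, -0.04 at 16 °C and 0.04 at 24 °C. The medians of the carriers were 0.43, 0.07, -0.01 and 0.28 in the same order. With median-ratio size factors the carriers at 24 °C split into 2 higher and 6 lower in place of 6 and 4, and all genes into 9.35% higher and 9.78% lower. Several values lay near the limit. SLC1A1 (1.02), SLC1A2 (1.01), SLC36A4 (1.01) and SLC43A2 (1.03) were just inside it at 24 °C, and SLC2A14 (-0.99) and SLC7A5 (-0.96) just outside. With FPKM rescaled to 1000000 per library, the split was 3 higher against 6 lower at 16 °C and 11 against 5 at 24 °C. All genes also tilted to higher values under that scaling, with 12.7% higher and 7.7% lower at 16 °C and 16.4% and 7.7% at 24 °C.

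Summed over the 63 carriers, FPKM was 1108 in unstored blastoderms, 1253 after incubation and 1247 after storage at 4 °C, against 651 at 16 °C and 831 at 24 °C. These 63 carriers thus held 0.303% of the FPKM over all deposited rows of the unstored library and 0.195% of that stored at 16 °C. Rows with an assigned gene held 72.0% and 70.4% of that FPKM, so that carriers without an assigned row are missing from these shares. The decrease was concentrated in 2 genes, SLC2A14 and SLC16A1, which together made up 58.3% of carrier FPKM in unstored blastoderms, 34.9% at 16 °C and 36.5% at 24 °C. Without them the sums were 462, 637, 503, 424 and 527 in the unstored, incubated, 4, 16 and 24 °C libraries.

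**Figure D2:**
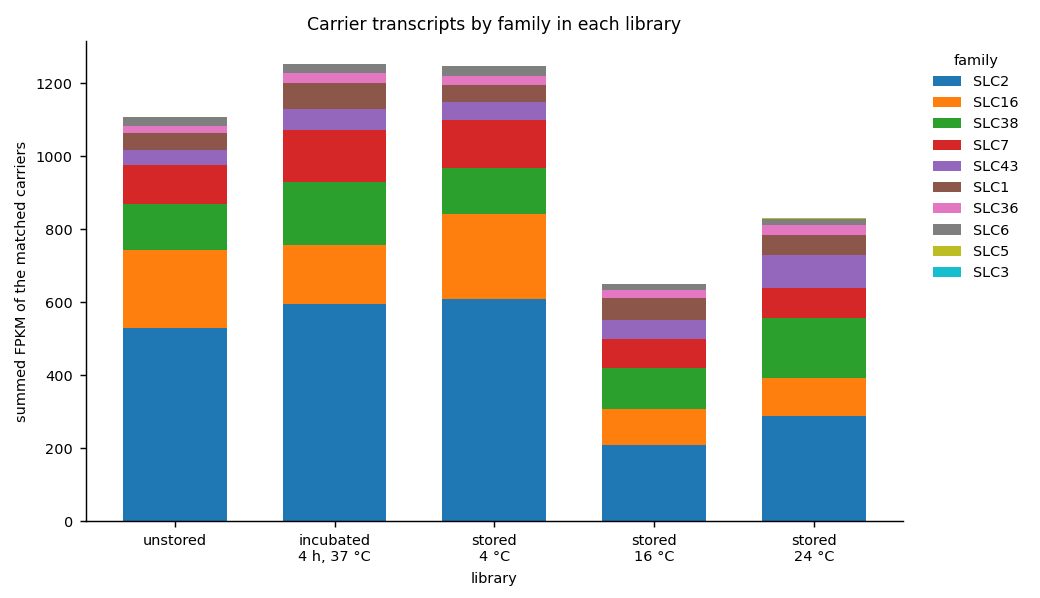
FPKM summed over the matched carriers of each family (stacked colours) in each of the 5 libraries, with 1 library per condition. The bars for 16 and 24 °C, at 651 and 831, are lower than the other bars, mostly in the SLC2 and SLC16 families.

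The SLC2 family, the facilitative sugar carriers, held more of the carrier FPKM than any other family in every library, 47.9% in unstored blastoderms and 32.3% at 16 °C. It had 12 members, of which 8 entered. SLC2A14, which the RefSeq table also lists as GLUT3 and SLC2A3, is a glucose carrier. It was the most abundant of the carriers with an assigned row and ranked 71 of 7733 genes by mean FPKM. Its FPKM was 478 in unstored blastoderms, 496 after incubation and 558 after storage at 4 °C, 160 at 16 °C and 240 at 24 °C. The unstored, incubated and 4 °C libraries were thus close together, and the libraries stored at the warmer temperatures were lower. Against unstored the difference was -1.57 at 16 °C, where the unstored level was 2.99 times as high, and -0.99 at 24 °C.

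SLC2A1 (GLUT1), the glucose carrier of most embryonic cells, differed in another pattern. Its FPKM was 40.0 in unstored blastoderms, 74.8 after incubation, 36 at 4 °C, 39.6 at 16 °C and 35.2 at 24 °C. Only the incubated library stood out, with a difference of 0.89, short of the limit, and the 3 stored libraries were within 0.18 of unstored. The ratio of SLC2A14 to SLC2A1 was accordingly 11.9 in unstored blastoderms, 15.5 at 4 °C, 6.63 after incubation, 6.82 at 24 °C and 4.05 at 16 °C.

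The other SLC2 members were scarce. SLC2A13, a carrier of myo-inositol with protons in mammals, had FPKM of 1.71 in unstored and 7.22 in incubated blastoderms, a difference of 1.60, or 1.48 relative to the median of all genes. At 4, 16 and 24 °C it was at 2.22, 1.26 and 2.04. SLC2A2 (GLUT2), the low-affinity glucose carrier of liver and gut, was at 0.13 in unstored and 1.59 in incubated blastoderms (1.20), and between 0.23 and 0.32 in the stored libraries. SLC2A9L went from 0.16 to 1.78 after incubation (1.26). By its name SLC2A9L is a relative of SLC2A9, a urate and sugar carrier, and the division of reads between copies of a family is uncertain. SLC2A9 itself was at 3.86 in unstored and 5.89 in incubated blastoderms, and at 1.85 and 2.02 at 16 and 24 °C. SLC2A8, an intracellular sugar carrier, ranged from 4.42 in unstored blastoderms to 7.97 at 24 °C (0.73). The fructose carrier SLC2A5 did not exceed 0.11 in any library.

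The SLC16 family holds the monocarboxylate carriers, with 8 members of which 6 entered, and its 2 lactate carriers of highest level were both lower at 16 and 24 °C. SLC16A1 (MCT1), which carries lactate and pyruvate with protons, had FPKM of 168 in unstored blastoderms, 120 after incubation and 185 after storage at 4 °C, 66.8 at 16 °C and 63.5 at 24 °C. The differences were -1.32 and -1.39 at 16 and 24 °C, and -0.48 after incubation. SLC16A3 (MCT4), known in mammals as the lactate exporter of glycolytic cells, was at 26.2, 15.9, 31.1, 11.4 and 10.3 in the same order. Its differences were -1.13 at 16 °C, -1.26 at 24 °C and -0.69 after incubation. Both genes had their highest level at 4 °C and their lowest at 24 °C. The ratio of SLC16A1 to SLC16A3 stayed between 5.84 and 7.55 in all 5 libraries.

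The remaining SLC16 members did not share this pattern. SLC16A9, a carrier of carnitine or creatine in mammals, had FPKM of 15.0 in unstored and 21.6 in incubated blastoderms, 16.0 at 4 °C, 16.1 at 16 °C and 26.3 at 24 °C, where the difference was 0.77. SLC16A14 was at 1.30 in unstored blastoderms and 3.32 at 24 °C (0.91). SLC16A7 (MCT2) and the creatine carrier SLC16A12 reached FPKM of 1 only after incubation, at 1.33 and 1.20. The family as a whole had none of 6 higher and 2 of 6 lower at both 16 and 24 °C, where 8.75% and 8.37% of all genes were lower.

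**Figure D3:**
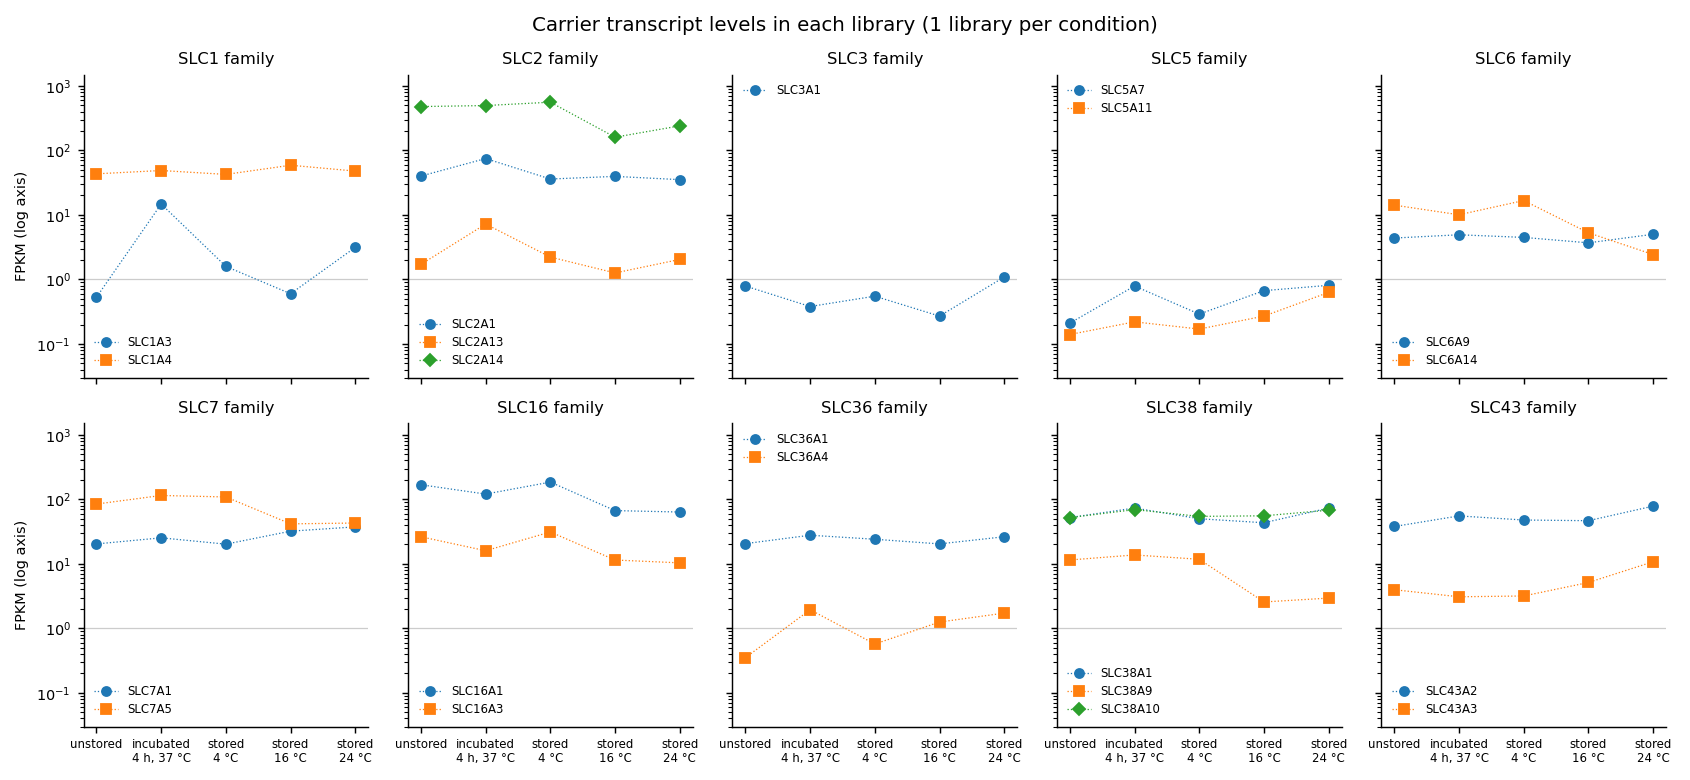
FPKM on a log axis of the 21 named carriers in each library, 1 panel per family and 1 point per library, with dotted lines joining the points of a gene and a grey line at FPKM 1. SLC2A14, SLC16A1, SLC16A3, SLC7A5, SLC6A14 and SLC38A9 are lower in the libraries stored at 16 and 24 °C than in the other libraries, while SLC1A3 is highest after incubation.

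Genes that act beside these carriers were examined from fixed lists, whose counts are to be read against the shares of all genes. Those called higher were 8.48% after incubation, 7.66% at 16 °C and 10.5% at 24 °C, and those called lower were 8.75% at 16 °C and 8.37% at 24 °C. Of 5 genes of carrier partners and lactate, 1 was lower at 16 °C and 2 were lower at 24 °C, and none was called after incubation or at 4 °C. EMB (embigin), an accessory protein of monocarboxylate carriers, had FPKM of 81.7 in unstored blastoderms, 76.6 after incubation, 97.0 at 4 °C, 35.4 at 16 °C (-1.19) and 25.7 at 24 °C (-1.63). BSG (basigin), the main partner of SLC16A1 and SLC16A3, was instead at 343 in unstored blastoderms, 411 at 16 °C and 418 at 24 °C (0.26 and 0.28). Of the enzymes that interconvert pyruvate and lactate, LDHB went from 431 to 225 at 16 °C (-0.94) and 235 at 24 °C (-0.87). LDHA went from 61.5 to 37.0 (-0.72) and 28.6 (-1.08), and at 4 °C it was at 81.5.

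Sugar entry into metabolism was represented by 6 matched genes of 12 listed, of which 2 were higher after incubation, 3 were called at 16 °C (1 higher, 2 lower) and 1 was lower at 24 °C. HK2, a hexokinase that traps glucose in the cell as its phosphate, had FPKM of 40.1 in unstored blastoderms, 70.8 after incubation and 58.8 after storage at 4 °C, 15.5 at 16 °C (-1.32) and 18.2 at 24 °C (-1.10). HK1 was at 80.9, 88.7, 82.8, 59.0 and 65.1, with no called difference. ARRDC3, an arrestin-related protein, was called higher after incubation (1.03) and at 16 °C (1.10), and PFKM, the muscle phosphofructokinase, after incubation (1.04) at FPKM of 0.28 and 1.64. HKDC1, a hexokinase relative, was lower at 16 °C (-1.29) at FPKM of 1.96 and 0.21. GPI, which isomerises glucose phosphate, was at 365 in unstored blastoderms and 325 and 249 at 16 and 24 °C (-0.16 and -0.55).

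**Figure D4:**
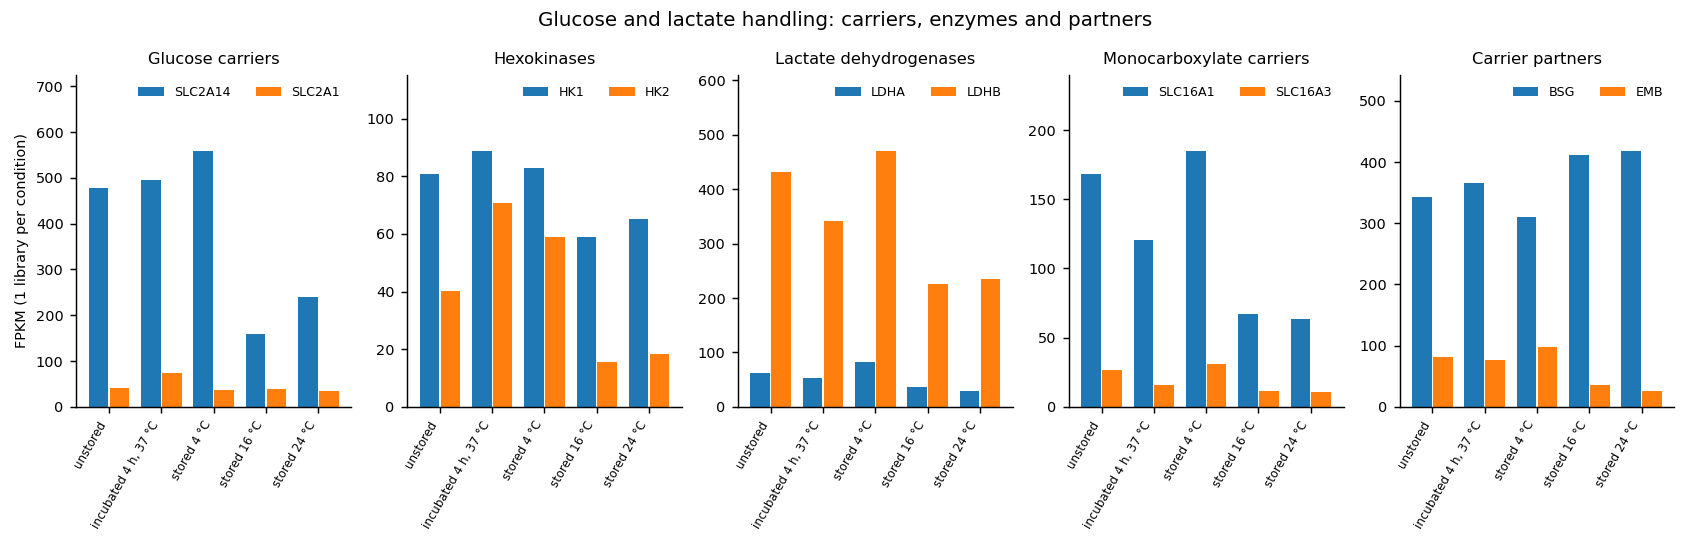
FPKM of glucose carriers, hexokinases, lactate dehydrogenases, monocarboxylate carriers and their partner proteins as bars from 0, in 5 libraries with 1 library per condition. SLC2A14, HK1, HK2, LDHA, LDHB, SLC16A1, SLC16A3 and EMB are lower at 16 and 24 °C than in unstored blastoderms. SLC2A1 is near its unstored level at these temperatures, and BSG is not lower.

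The SLC1 family contains the glutamate carriers and the neutral amino acid carrier SLC1A4 (ASCT1), and its scarce members differed more than its abundant one. It had 6 members, of which 4 entered. SLC1A3 (EAAT1), a sodium-coupled carrier of glutamate and aspartate known from glia, had FPKM of 0.53 in unstored blastoderms, 14.8 after incubation, 1.59 at 4 °C, 0.60 at 16 °C and 3.14 at 24 °C. The incubated library stood far above the others, 27.8 times the unstored level, with a difference of 3.36, or 3.25 relative to the median of all genes. At 24 °C the difference was 1.44, and against 16 °C it was 1.37. At 4 °C it was 0.76, short of the limit, which it passed with a pseudocount of 0.1 (1.42) and with rescaling (1.06).

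SLC1A1 (EAAT3) and SLC1A2 (EAAT2), also glutamate carriers, were at low levels and had their 2 highest values in the incubated and 24 °C libraries. For SLC1A2 the minimum fixed this, because it entered through these 2 libraries only. SLC1A2 was at 0.43 in unstored blastoderms, 2.42 after incubation (1.26), 0.73 at 4 °C, 0.70 at 16 °C and 1.88 at 24 °C (1.01). SLC1A1 was at 0.93, 2.31, 1.01, 1.72 and 2.92, with differences of 0.78 after incubation and 1.02 at 24 °C. SLC1A4 was by contrast at 43.3 in unstored blastoderms, 48.8 after incubation, 42.4 at 4 °C, 58.9 at 16 °C and 47.8 at 24 °C, so that its largest difference was 0.43. SLC1A6 and SLC1A7, glutamate carriers of neurons and retina, did not exceed 0.58.

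The SLC7 family exchanges or admits amino acids, with 9 members of which 5 entered, and its 2 abundant members went in different directions. SLC7A5 (LAT1), the exchanger of leucine and other large neutral amino acids, had FPKM of 84.4 in unstored blastoderms, 115 after incubation and 109 after storage at 4 °C, 41.6 at 16 °C and 42.9 at 24 °C. The differences were -1.0 and -0.96 at 16 and 24 °C, at the limit of the call. With FPKM rescaled to 1000000 per library, or with size factors, SLC7A5 was no longer called at 16 °C, nor was it with a pseudocount of 5. With size factors it was called lower at 24 °C instead (-1.03). SLC7A1 (CAT1), which admits arginine and lysine, was at 20.3, 25.3, 20.2, 32.0 and 37.4 in the same order, with differences of 0.63 and 0.85 at 16 and 24 °C. The ratio of SLC7A5 to SLC7A1 was 4.15 in unstored blastoderms, 4.54 after incubation, 5.39 at 4 °C, 1.30 at 16 °C and 1.15 at 24 °C.

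The other SLC7 members were scarce. SLC7A11, the cystine and glutamate exchanger, was at 1.16 in unstored blastoderms, 1.03 after incubation, 1.13 at 4 °C, 0.45 at 16 °C and 0.53 at 24 °C. SLC7A9, which in mammals forms the cystine and dibasic amino acid exchanger with SLC3A1, was at 0.27 in unstored blastoderms and 2.42 at 16 °C (1.43), and between 0.16 and 0.95 in the other libraries. SLC3A1, the heavy subunit, was the only SLC3 member with an assigned row. It was lowest at 16 °C, at 0.27, and highest at 24 °C, at 1.09. SLC7A9 entered through the 16 °C library alone and SLC3A1 through the 24 °C library alone, so that the minimum fixed where each was highest.

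The SLC6 family, sodium and chloride coupled carriers of amino acids and transmitters, had 13 members, of which 4 entered. SLC6A14, a carrier of neutral and cationic amino acids, had FPKM of 14.2 in unstored blastoderms, 10.1 after incubation and 16.7 after storage at 4 °C, 5.29 at 16 °C and 2.43 at 24 °C. The 2 libraries stored at warmer temperatures were lowest, with differences of -1.27 and -2.15, the latter the lowest of any carrier in any comparison. SLC6A9 (GLYT1), the glycine carrier, ranged from 3.69 at 16 °C to 5.01 at 24 °C. SLC6A15, a carrier of branched-chain amino acids and proline, was at 3.64 in unstored blastoderms, 4.91 after incubation, 3.19 at 4 °C, 1.75 at 16 °C and 4.88 at 24 °C. Against 16 °C it was higher at 24 °C, by 1.10. This value is for the sum of 2 predicted transcripts, at 1.25 and 0.50 at 16 °C and at 2.99 and 1.89 at 24 °C. With the highest row per symbol SLC6A15 was not called. SLC6A13, a carrier of GABA, was listed at 0 in unstored blastoderms. It was at 0.75 after incubation, 0.19 at 4 °C, 1.36 at 16 °C and 1.90 at 24 °C. It entered through the 16 and 24 °C libraries only, so that the minimum fixed its 2 highest libraries. The carriers of serotonin (SLC6A4) and noradrenaline (SLC6A2) did not exceed 0.90 in any library, and SLC6A20 was listed at 0 in every library.

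The SLC38 family, which includes sodium-coupled carriers of glutamine and other neutral amino acids, had 6 members, of which 5 entered. SLC38A9, the arginine sensor of the lysosomal membrane that signals to the kinase complex mTORC1 in mammals, had FPKM of 11.5 in unstored blastoderms, 13.7 after incubation and 11.7 after storage at 4 °C, 2.56 at 16 °C and 2.94 at 24 °C. The levels at the 2 warmer temperatures were the lowest, with differences of -1.81 and -1.66 and an unstored level 4.48 and 3.90 times as high. SLC38A1 (SNAT1), a glutamine carrier, was at 52.1, 73.2, 49.9, 43.3 and 73.0 in the order unstored, incubated, 4, 16 and 24 °C. SLC38A10 was at 52.0, 69.2, 54.3, 55.4 and 67.8 in that order. SLC38A6 was at 8.92 in unstored blastoderms, 14.3 after incubation (0.63) and 18.4 at 24 °C (0.96). None of these 3 reached the limit in a comparison with unstored.

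The 2 matched SLC43 carriers were both higher at 24 °C, where 10.5% of all genes were. SLC43A2 (LAT4), a facilitative carrier of branched-chain amino acids, had FPKM of 37.9 in unstored blastoderms, 55.3 after incubation, 47.7 at 4 °C, 46.6 at 16 °C and 78.3 at 24 °C, where the difference was 1.03. SLC43A3, a carrier of purine nucleobases in mammals, was at 3.96, 3.08, 3.17, 5.13 and 10.8, with a difference of 1.25 at 24 °C. With size factors SLC43A2 was no longer called and SLC43A3 was, and with a pseudocount of 5 neither was called. In the SLC36 family, which includes proton-coupled carriers found also on lysosomes, SLC36A1 (PAT1) was at 20.5, 27.7, 24.0, 20.3 and 26.3. SLC36A4 was at 0.35 in unstored blastoderms, 1.94 after incubation (1.12), 0.57 at 4 °C, 1.25 at 16 °C and 1.72 at 24 °C (1.01). None of the 4 matched members of the SLC5 family, sodium-coupled carriers of sugars, choline and other solutes, reached FPKM of 1. SLC5A7, the choline carrier, was highest at 0.81 and SLC5A11, an inositol carrier, at 0.63, both at 24 °C.

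Storage at 24 °C was set against storage at 16 °C directly. Of 37 carriers, 2 were higher and none was lower, where 2.83% of all genes were higher and 1.23% lower. They were SLC1A3 and SLC6A15, both under FPKM of 5 in these libraries, and SLC6A15 was called only as the sum of its transcripts. SLC43A3 (0.94), SLC1A2 (0.76), SLC38A1 (0.74) and SLC43A2 (0.74) followed with positive values, and SLC6A14 (-0.87) and SLC7A9 (-0.81) had the lowest. The median of the carriers was 0.27 and that of all genes 0.07. With FPKM rescaled to 1000000 per library, 5 of 48 carriers were higher and 3 lower, where 4.71% of all genes were higher and 2.34% lower.

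By library, 17 of the 37 carriers had their highest level after incubation and 11 at 24 °C, or 45.9% and 29.7%, where 27.2% and 22.5% of all genes did. The minimum itself fixed the highest library of the 5 carriers that entered through the incubated library alone, and of 1 each at 16 and 24 °C, so these shares are a description only. Their lowest level was most often at 16 °C, in 14 carriers (37.8%, all genes 27.3%). Among the 17 carriers with a mean FPKM of at least 5, 6 were highest after incubation and 6 at 24 °C, 4 at 4 °C, 1 at 16 °C and none in unstored blastoderms. Among all genes of that abundance 24.2% were highest after incubation, 20.9% at 24 °C, 28.0% at 4 °C, 17.1% at 16 °C and 9.77% in unstored blastoderms.

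The genes that respond to amino acid supply gave few calls, too few to set apart from the shares of all genes. The share of all genes with a higher call was 7.66% for the 16 °C library and 10.5% for the 24 °C library. For a lower call in the 24 °C library the share was 8.37%. Of 20 genes listed for the amino acid response, 12 had an assigned row and 11 entered. None of the 11 was called after incubation or at 4 °C, and PSAT1 alone was higher at 16 °C. At 24 °C PSAT1 and VLDLR were higher and ATF4 was lower. PSAT1, an enzyme of serine synthesis, had FPKM of 10.5 in unstored blastoderms, 28.2 at 16 °C (1.35) and 27.1 at 24 °C (1.29). ATF4, the transcription factor of this response, was at 78.6 in unstored blastoderms, 61.0 at 16 °C (-0.36) and 37.5 at 24 °C (-1.05). ASNS, asparagine synthetase and a known target of ATF4, was at 24.2, 25.5 and 31.7. VLDLR, the lipoprotein receptor of the list, was higher at 24 °C (1.26). In the next 2 lists the share called was near or under that of all genes at 16 °C. Of 28 genes listed for amino acid sensing at the lysosome, 16 had an assigned row and 1 of these was called, MIOS. MIOS, a subunit of a complex upstream of mTORC1, was at 15.1 in the unstored and 5.60 in the 16 °C library (-1.28). At 24 °C MIOS was at 17.2 (0.18), higher than at 16 °C by 1.46. MTOR itself was at 12.4, 16.3 and 20.4 in the unstored, 16 and 24 °C libraries. Of 14 genes listed for amino acid use and glutathione synthesis, 9 had an assigned row and 1 of these was called, GLUL. GLUL, glutamine synthetase, was at 79.6 in unstored blastoderms and 39.0 at 16 °C (-1.01), with 65.2 at 24 °C.

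Markers of cell types and of other sources moved between the same libraries. Of all genes, 8.48% were called higher after incubation, 0.637% at 4 °C, 7.66% at 16 °C and 10.5% at 24 °C. Against 16 °C, 2.83% were higher at 24 °C. Those called lower than in unstored blastoderms were 8.75% at 16 °C and 8.37% at 24 °C. The summed FPKM of 8 matched epiblast genes was 1906 in unstored blastoderms, 1328 after incubation, 1886 at 4 °C, 1056 at 16 °C and 886 at 24 °C. Of the 7 that entered, none was called after incubation. DNMT3B, LIN28A, SOX3 and NANOG, a defining gene of the epiblast, were the 4 called lower at 16 and at 24 °C. EPCAM (-0.24 and -0.59), CDH1 (-0.07 and 0.21) and LIN28B (-0.99 and -0.51) were not called there. EPCAM (620), NANOG (526) and DNMT3B (517) gave most of the unstored sum. After incubation LIN28A (0.56), CDH1 (0.21) and LIN28B (0.04) had positive differences, and the others that entered had negative ones. NANOG was at 526 in unstored blastoderms, 357 after incubation, 518 at 4 °C, 225 at 16 °C (-1.22) and 223 at 24 °C (-1.23). SOX2 was at no more than 0.33. The sum of 9 hypoblast and endoderm genes was 81.8, 228, 179, 159 and 278 in the same order, with none listed at 0. APOA1, an apolipoprotein, gave 103 of the sum after incubation and 198 at 24 °C. Of the 8 that entered, 6 were higher after incubation and 6 at 4 °C, 2 at 16 °C and 5 at 24 °C, and 1 was lower at 16 and at 24 °C. HNF4A, a transcription factor of the visceral endoderm in the mouse, differed by 3.90 and CER1, a secreted inhibitor, by 2.89 after incubation. GATA5 and HHEX had negative differences after incubation (-0.43 and -0.36). GATA5 was the gene called lower at 16 and 24 °C (-1.34 and -1.19). The sum of 7 streak and mesoderm genes was 73.3, 139, 109, 66.6 and 98.9, with MSGN1 at 0 at 4 °C. TBX6 gave 82.6 of the sum after incubation. Of the 6 that entered, 2 were higher after incubation and 2 at 4 °C, and 2 were lower at 16 °C. At 24 °C TBXT was higher (2.26), and EOMES (-2.14) and SNAI2 (-1.34) were lower. The 6 white blood cell genes summed to 4.89, 13.2, 6.47, 24.2 and 26.6, of which LCP1 alone gave 18.5 at 16 °C and 21.1 at 24 °C, and SPI1 did not exceed 0.08. The 6 egg white and oviduct genes summed to 5.67, 7.43, 4.33, 11.6 and 33.0, with OVAL at or under 0.05. The 3 that entered were all higher at 24 °C than in unstored blastoderms, AVD (avidin) by 1.81, SPP1 by 1.78 and TF (transferrin) by 2.52, and SPP1 and TF were also higher than at 16 °C. The 5 erythroid genes did not exceed a sum of 1.26, and the 6 muscle and neural genes summed to 14.9, 19.0, 21.7, 6.73 and 6.08. NEFM gave 10.2 of the muscle and neural sum in unstored blastoderms, 3.01 at 16 °C and 1.33 at 24 °C. The part of these shifts in the carrier values was not tested.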

How the data were processed

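Polyadenylated RNA of 5 blastoderm samples was sequenced as TruSeq libraries on an Illumina HiSeq, per the labels' protocols. The authors deposited FPKM per RefSeq transcript accession, per the file headers, with 2 decimals. The submitters' processing notes name galGal4 as the build and TopHat2 2.0.8 and Cufflinks 2.0.2 as tools, without their roles. The annotation release and the scaling between libraries were not stated. FPKM summed to between 333528 and 389061 per library. Without counts the depth behind a value is unknown, so intervals and detection limits could not be had, and a value of 0 may be a failed estimate.

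Accessions without version were looked up in RefSeq genes of another assembly, GRCg7b, which named 12609 of 32188 rows (39.2%). No coordinates of it were used. The 63 carriers had 80 rows, 2 of them matched with the same version. For 43 carriers every row was a predicted transcript, and 11 had more than 1 row. Rows were summed per symbol, and any isoform without a match is missing from the sum.

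Genes entered if any library had FPKM of 1 or more, and a pseudocount of 1 was added, in Python 3.11.15 with pandas 2.3.3. With 1 library per condition no test between conditions was possible. Carriers were named with values where they had FPKM of at least 5 and a called difference from unstored, or were among the 2 highest of their family, which gave 21; others appear for their family's account. Of the 5 lists of related genes and 7 of markers, examples were named by level or call. The members, lists and comparisons were chosen with earlier results of these data known. The alternatives were other pseudocounts, filters, scalings and choices of rows. Sequences were not used here.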

Additional observations from a re-analysis of the deposited data

How the results depend on the processing

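The counts of carriers called depend on the pseudocount, since many carriers are scarce. With a pseudocount of 0.1 the carriers higher were 11 after incubation, 1 at 4 °C, 2 at 16 °C, 10 at 24 °C and 5 for 24 °C against 16 °C, and the carriers lower were 11 at 16 °C, 7 at 24 °C and 2 for 24 °C against 16 °C. The shares of all genes moved too. Those higher were 14.3% after incubation, 2.27% at 4 °C, 12.4% at 16 °C, 15.7% at 24 °C and 6.27% for 24 °C against 16 °C. Those lower were 12.4% at 16 °C, 11.6% at 24 °C and 3.22% for 24 °C against 16 °C. With a pseudocount of 5, 1 carrier was higher after incubation. At 16 °C 0 were higher and 3 lower, and 0 were higher at 24 °C and for 24 °C against 16 °C. Of all genes, 4.06% were then lower at 16 °C. Those higher were 2.08% after incubation and at 16 °C, 3.38% at 24 °C and 0.598% for 24 °C against 16 °C. At a mean FPKM of at least 5, where 17 carriers remain, 0 were higher after incubation, at 16 °C and for 24 °C against 16 °C, and 2 at 24 °C. Among all genes of that abundance, 6.19% were higher after incubation, 6.57% at 16 °C, 8.52% at 24 °C and 2.53% for 24 °C against 16 °C. Rescaling to 1000000 per library gave 1 lower after incubation, 1 higher at 4 °C, 3 higher at 16 °C, 11 higher at 24 °C, and 5 higher and 3 lower for 24 °C against 16 °C. Of all genes, 3.27% were then lower after incubation, and 0.919% were higher at 4 °C, 12.7% at 16 °C and 16.4% at 24 °C. For 24 °C against 16 °C the shares were 4.71% higher and 2.34% lower. Rescaling raises every value, so more carriers enter and low ones weigh more. With median-ratio size factors 2 were higher at 24 °C, where 9.35% of all genes were. SLC36A4 (1.01) and SLC43A2 (1.03), just inside the limit on values as deposited, were among those no longer called, SLC36A4 being at 0.99 with size factors. With curated accessions only, which left 15 carriers, 2 were higher after incubation, 1 higher and 2 lower at 24 °C, and 0 higher for 24 °C against 16 °C. Of all genes with such accessions, 8.11% were higher after incubation and 2.69% for 24 °C against 16 °C. At 24 °C 9.85% were higher and 8.78% lower. With the highest row per symbol, or with genes of 1 matched accession, 1 was higher for 24 °C against 16 °C, where 3.06% and 2.76% of all genes were. The other 60 counts stayed within 1.5 times, including those without the minimum, which could not change. Of 90 values for the carrier medians and for the library of highest level, 28 moved. The median went from 0.43 to 0.23 after incubation and from 0.28 to 0.10 at 24 °C with a pseudocount of 5, and from -0.01 to 0.19 at 16 °C with rescaling. Of 760 values of named carriers under the alternatives, 733 kept their side of the limit, 14 fell short of it, 13 passed it and none changed sign across it. No paired analysis was possible because each condition had 1 library, and depth limits cannot be given for FPKM.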

Other observations

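Several carriers had more than 1 deposited row, and Cufflinks divides reads between such transcripts by a model. For SLC38A9, both predicted transcripts were lower at the warmer storage temperatures. The first had FPKM of 4.42 in unstored blastoderms, 0.87 at 16 °C and 0.24 at 24 °C, and the second had 7.04, 1.69 and 2.70. For SLC43A3, both were highest at 24 °C, at 6.40 and 4.36, against 2.50 and 1.46 in unstored blastoderms. The transcripts of SLC36A1, by contrast, differed from each other while their sum was close to that of the unstored library at 16 °C. At 16 °C the first had 5.82 and the third 9.61, under their unstored values of 6.98 and 11.25, and the second had 4.91, over its unstored value of 2.31. In SLC2A11L5 the first transcript was at 1.23 in unstored blastoderms and 0.11 at 16 °C, while the second was at 0.49 and 0.45.

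The 26 carriers that stayed under FPKM of 1 in all libraries included SLC1A6, SLC6A11, SLC6A2, SLC6A4 and SLC7A14, known from neural tissue, and SLC2A5, SLC5A12, SLC6A19 and SLC7A7, known from gut and kidney. Other carriers known from such tissues did enter. Among them were SLC1A3, known from glia, and SLC2A2, known from liver and gut, at 14.8 and 1.59 after incubation.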
